A study of Mus musculus with 84 samples.

Results

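The genes described here are the Eph receptors, their ephrin ligands, the Slit ligands and their Robo receptors, and the netrins with their receptors, read in single neurons of mouse prefrontal cortex. The rule that picked them reads gene symbols only, and it was set with earlier results of these data known. It found 41 of the 19685 genes in the table. These are 9 EphA and 5 EphB receptors, 5 ephrin-A and 3 ephrin-B genes, 3 Slit and 4 Robo genes, 4 secreted netrins, 2 netrin-G genes, Dcc and Neo1, and 4 Unc5 genes. Of these, 28 had a count in at least 8 cells and are called measured, and 13 did not.

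The 84 neurons came from acute slices of C57/BL6/N mice that received no treatment. Each was drawn up through the patch pipette, its polyadenylated RNA was amplified by the aRNA procedure (rounds of in vitro transcription), and reads were counted per gene. The titles give 25 neurons the letter F and 59 the letter P. The series title names fast-spiking cells (GABAergic interneurons) and pyramidal cells (glutamatergic projection neurons), whose initials match, but no label spells the letters out. No label gives the animal, its age or a genotype, so each group counted as 1 sample. No p-value was computed, and intervals are 95% exact binomial intervals for the draw of cells or exact Poisson intervals for counting error only. Amplification copies molecules, and no molecular identifier marks the copies.

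Guidance genes tell growing axons where to go. Eph receptors are tyrosine kinases that bind ephrins held on a neighbouring cell: ephrin-A proteins by a lipid anchor, ephrin-B proteins by a membrane span, and both sides can signal. Secreted Slits repel axons that carry Robo. Secreted netrins attract axons through Dcc and repel them through Unc5, and neogenin (Neo1) is a relative of Dcc that also binds repulsive guidance molecules. Netrin-G proteins are membrane-anchored relatives that bind synaptic adhesion proteins instead of Dcc. In mature cortex members of these families remain at synapses and spines.

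Several features of the libraries bear on each value. Library totals spanned 36594 to 12043599 counts among F cells and 19802 to 16251918 among P cells. The 16 F libraries numbered 13 to 28 were shallow, with a median of 246319 counts and 1872.5 genes, against 2707087 counts and 3858 genes in the other 9 F cells. They also shared 17 genes that were found in at least 15 of the 16 and in under 20% of all other cells. Libraries F11 and F12 correlated at 0.96 (Pearson, log2 scale across genes), while the next closest pair of cells reached 0.62. Whether they are separate cells cannot be told from the counts; both were kept, as labelled, and the results that rest on them are given without them. GABAergic markers were at least 2-fold higher in F cells for 7 of 7 measured, and glutamatergic markers at least 2-fold higher in P cells for 9 of 9. Of all measured genes, 18.5% were at least 2-fold higher in F cells and 46.4% in P cells. The summed GABAergic level had a median of 129 CPM in F13 to F28, near their glutamatergic median of 104 CPM, against 5598 CPM in the other 9 F cells. Gad1, a GABA-synthesising enzyme, had a count in 9 of those 16, in 9 of the other 9 and in 27 P cells. Pvalb, a calcium-binding protein typical of fast-spiking interneurons, had a count in 2 F and 5 P cells.

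Of the EphA receptors, Epha4 and Epha7 were higher in P cells, while Epha3 and Epha5 had the higher mean in F cells. The 250 bases before their transcription start are shown because these 2 receptors were found in the most P cells of all Eph genes and were lower in F cells in every setting tried. Sequences are from RefSeq on GRCm38.p6, 5′ to 3′ on the gene's strand. Capitals mark matches, on either strand, to CCAAT (the CCAAT box core) or TGACGT (part of a cyclic AMP response element).
Epha4, chr1:77515089-77515338, minus strand: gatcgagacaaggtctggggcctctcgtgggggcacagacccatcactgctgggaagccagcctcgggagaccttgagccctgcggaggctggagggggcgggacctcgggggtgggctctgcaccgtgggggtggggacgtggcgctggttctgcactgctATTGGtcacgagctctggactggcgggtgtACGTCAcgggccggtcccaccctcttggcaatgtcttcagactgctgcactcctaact
Epha7, chr4:28812881-28813130, plus strand: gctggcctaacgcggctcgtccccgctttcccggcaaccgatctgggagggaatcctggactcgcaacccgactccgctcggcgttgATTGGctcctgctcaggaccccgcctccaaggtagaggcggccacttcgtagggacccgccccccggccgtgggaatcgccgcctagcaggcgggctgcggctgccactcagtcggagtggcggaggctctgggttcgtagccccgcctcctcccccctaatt
Each holds 1 CCAAT core, 88 bases before the start in Epha4 and 163 in Epha7, and Epha4 also holds TGACGT at 58 bases. Of 32851 windows of this length over all genes, 33.8% hold CCAAT and 6.47% hold TGACGT. Among the 41 windows that belong to 36 of the guidance genes, the shares were 36.6% and 7.32%. Both promoters are rich in G and C, at 66% and 69.2% against a median of 52.4%. CAGATG and CAGCTG (E-boxes that neurogenic factors can bind) and TATAAA were searched on both strands and are not in either window. These matches describe the letters only.

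Epha4 binds ephrins of both classes and is present on cortical axons and dendritic spines. Its level, in counts per 1000000 counts of the cell (CPM), was 0 to 24.6 across F cells (median 0) and 0 to 5133 across P cells (median 1.19). A count was found in 6 of 25 F cells (24%, interval 9.36 to 45.1%) and in 32 of 59 P cells (54.2%, 40.8 to 67.3%). The groups overlap at the low end, but 16 P cells lay above the highest F cell, and 14 P cells and no F cell reached 100 CPM. The F cells held 17 counts in all (Poisson interval 9.9 to 27.2) and the P cells 58649. The mean of 1.47 CPM in F against 202 CPM in P gives a log2 fold of -6.36, taken between the group means after adding 1 CPM to each, so that values below 0 are higher in P. It was -6.70 without F13 to F28, -7.94 among the 9 cells read with the older basecaller version and -6.19 among the 75 read with the newer one. When every cell was thinned to 86539 counts, which left out 3 F and 6 P cells, Epha4 was found in 0 of 22 F cells, which allows a share of up to 13.6%, and in 23 of 53 P cells.

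**Figure D1:**
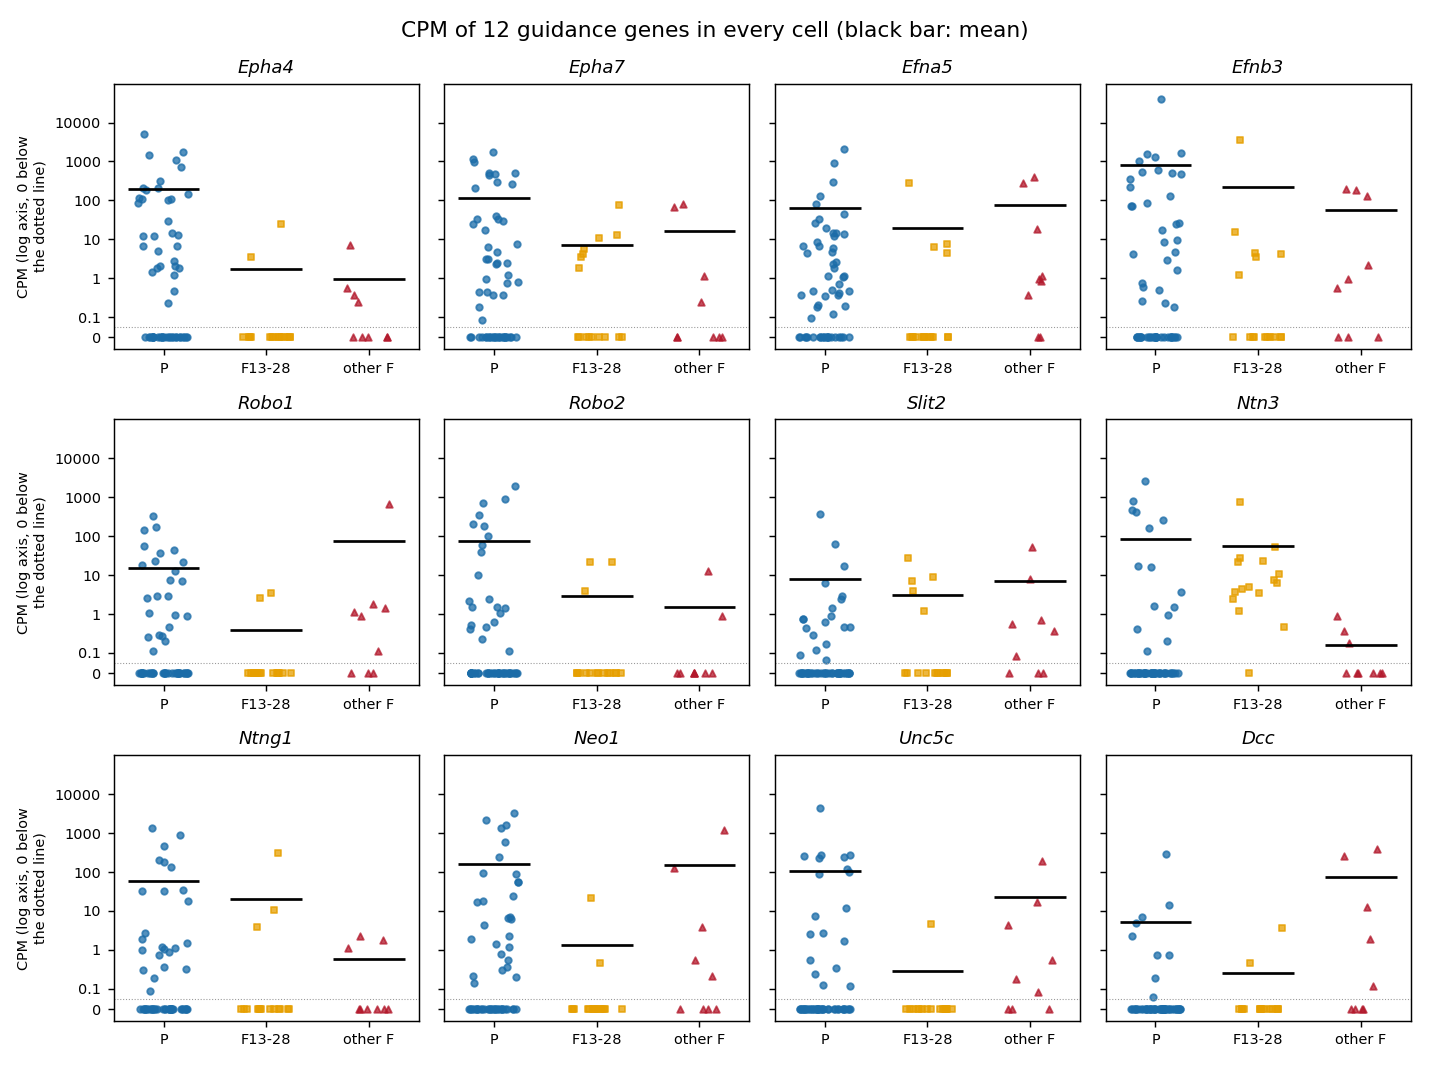
CPM of 12 guidance genes in every cell on a log axis, with cells at 0 placed below the dotted line and the mean of each set as a black bar; circles are P cells, squares F13 to F28, triangles the other 9 F cells. Epha4 reaches at most 24.6 CPM (F) and 5133 CPM (P), while the means of Robo1 and Dcc in F cells rest on 1 and 2 cells.

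Markers of astrocytes were also higher in P cells. Of 8 measured astrocyte markers, 7 were at least 2-fold higher in P cells, and their summed level was 0 to 18168 CPM across F cells (median 42.5) and 0 to 100013 CPM across P cells (median 555). Aldh1l1 was at 0 in all F cells and had a count in 3 P cells. Microglial markers were mixed, with 4 of 9 at least 2-fold higher in P cells and 3 in F cells, but 9 of 9 were so in P cells without F13 to F28. Their summed level had a median of 5.83 CPM (highest 25725) in F and 9.25 CPM (highest 15560) in P. Oligodendrocyte markers were split 3 and 3 of 7, with medians of 27.3 (highest 21411) and 11.3 CPM (highest 12420). Of all measured genes, 46.4% were at least 2-fold higher in P cells and 18.5% in F cells. Without F13 to F28 these shares were 45.6% and 19.3%. The part of astrocytes, microglia and oligodendrocytes in the values of Epha4 and of the other genes higher in P cells was not tested.

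Epha7, an ephrin-A receptor with a truncated form that can promote adhesion, was found more evenly. It was present in 11 of 25 F and 34 of 59 P cells, at 0 to 80 CPM (median 0) and 0 to 1788 CPM (median 0.43). Its F cells span F13 to F28 (7 of 16) and the others (4 of 9) alike, whereas 10 P cells lay above the highest F cell. Means were 10.6 and 117 CPM, a log2 fold of -3.35, and -2.76 without F13 to F28. At equal depth it was found in 5 of 22 F and 16 of 53 P cells, so the difference lay in the high levels of some P cells more than in how often it was found.

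The other EphA genes were rarer. Epha5, a receptor of ephrin-A5, was 1 of only 2 measured guidance genes at least 2-fold higher in F cells. Its means were 21.6 against 5.49 CPM, a log2 fold of 1.8. The F mean rests on F1, which held 460 CPM and 85.2% of the F sum. Without F1 the log2 fold was -0.59, and Epha5 was found in 6 F and 16 P cells. Epha3 was found in a single F cell, F5, at 341 CPM, and in 11 P cells up to 365 CPM. Its log2 fold was 0.66, and -3.21 without F5. Epha10, which has no active kinase, was found in 6 F and 10 P cells, with means of 1.56 and 17.1 CPM. Among the older-basecaller cells it was found in 3 of 3 F and 0 of 6 P cells, and the fold pointed the other way. Epha6 was found in 3 F and 6 P cells, Epha2 in 2 and 5, Epha1 in 2 and 2, and Epha8 in 0 and 4.

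EphB receptors cluster ephrin-B signals at synapses, with Ephb2 known for its contact with NMDA receptors. Any of the 5 was found in 7 of 25 F cells, of which 6 were outside F13 to F28, and in 29 of 59 P cells. Most of their mean came from single cells. Ephb6, another receptor without kinase activity, had means of 1.87 CPM (F) and 41.5 CPM (P), and P20 alone held 2260 CPM. Its log2 fold of -3.88 became -0.55 without P20. Ephb3 reached 3378 CPM in P53 and 0.72 CPM in the next P cell, and was found in 4 F and 3 P cells. Ephb1 was found in 4 F and 11 P cells, at up to 9.16 and 255 CPM, with a log2 fold of -2.64. Ephb2 was found in 2 and 13 cells at means of 1.26 and 1.65 CPM, and Ephb4, a receptor of venous endothelium, in 2 and 2.

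Among ephrin-A ligands Efna5 stood alone. It was found in 38 of 59 P cells (64.4%, interval 50.9 to 76.4%), more than any other guidance gene, and in 11 of 25 F cells (44%, 24.4 to 65.1%). Its level was 0 to 398 CPM across F cells (median 0) and 0 to 2067 CPM across P cells (median 0.41), and 2 P cells lay above the highest F cell. Means were 39.9 and 62.6 CPM, a log2 fold of -0.64, which was 0.30 without F13 to F28, 0.50 without P37, 0.42 with TMMwsp scaling, 1.95 with pooled counts and -1.89 with the older basecaller, so no direction can be given. At equal depth it was found in 22.7% (F) and 22.6% (P), so a difference in how often was not detectable there. Of the mean ephrin-A level Efna5 made up 98.4% (F) and 93.8% (P). The remaining 4 were rare: Efna4 was found in 6 F and 6 P cells (up to 39 CPM, in P18), Efna2 in 1 and 5 (up to 169 CPM, in P71), Efna3 in 0 and 5, and Efna1 in 0 and 1.

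Ephrin-B ligands were led by Efnb3, known for keeping corticospinal axons from recrossing the midline. It was found in 12 of 25 F and 30 of 59 P cells, at 0 to 3594 CPM (median 0) and 0 to 40602 CPM (median 0.18). Per exonic kilobase it had the highest mean of the 41 genes in both groups, 52 (F) and 262 (P) CPM per kb. In F cells that rank rests on F27, and in P cells Efnb3 also ranks highest without P35. F27 held 86.8% of the F sum, and P35, the shallowest P library with 19802 counts, held 804 counts of Efnb3 and 82.4% of the P sum. The log2 fold of -2.33 was 0.14 without P35 and -5.14 without F27. It was -4.33 when the ribosomal RNA gene Rn45s was left out of the cell totals. Efnb2, a ligand on arterial endothelium as well as neurons, gave a steadier contrast: 4 of 25 F and 22 of 59 P cells, 0 to 102 against 0 to 1963 CPM (both medians 0), means of 5.24 and 63.9 CPM and a log2 fold of -3.38. It was -2.4 without F13 to F28, -7.29 for the older basecaller and -2.92 for the newer. Efnb1 was found in 5 F and 9 P cells, and P29 held 85.2% of its P sum: its log2 fold was -2.76, and -0.77 without P29. The summed level of 8 endothelial and mural markers had a median of 0 (highest 3156) in F and 0.24 CPM (highest 3197) in P. At least 1 of them was found in 11 of 25 F and 33 of 59 P cells. Pecam1 was at 0 in F cells, and Cldn5 was found in 1 F and 3 P cells. Vwf was found in 6 F and 9 P cells, and Pdgfrb in 2 and 11. The part of vascular cells in the ephrin-B values was not tested.

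Slit ligands were low in both groups. Slit2 was found in 11 of 25 F and 19 of 59 P cells, at 0 to 54 CPM and 0 to 367 CPM with medians of 0. It was among the 7 measured guidance genes found in a larger share of F cells. The means of 4.48 and 7.89 CPM gave a log2 fold of -0.70, which was 1.02 without P22, the cell with 78.9% of the P sum. Slit3 differed more. It was found in 3 of 25 F cells, with 4 counts in all (interval 1.09 to 10.2), and in 17 of 59 P cells with 1851 counts. No F cell exceeded 1.47 CPM, and 11 P cells did, up to 260 CPM. Means were 0.088 and 14.3 CPM, a log2 fold of -3.82, and at equal depth Slit3 was found in 0 of 22 F and 10 of 53 P cells. Slit1 was found in 2 F and 8 P cells at no more than 4.04 CPM.

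Robo1 and Robo2 differed in the direction of their means, but for Robo1 that direction rests on 1 F cell. Robo2 was found in 5 of 25 F and 22 of 59 P cells, at 0 to 21.3 and 0 to 1972 CPM with medians of 0. Its log2 fold was -4.52 (means 2.4 and 77.3 CPM), -4.95 without F13 to F28, and -3.70 and -4.66 with the older and newer basecaller. At equal depth the shares were 18.2% (F) and 20.8% (P), so here too P cells stood out by level: 9 lay above the highest F cell. Robo1 was found in 8 of 25 F and 24 of 59 P cells and had the higher mean in F cells, 27.5 against 15.1 CPM. F1 held 675 CPM, 98.3% of the F sum, and no other F cell exceeded 3.57 CPM. The log2 fold of 0.82 was -3.44 without F1 and -2.87 with the newer basecaller. Epha5 and Robo1 thus had their highest F value in the same cell. Robo3, a receptor of commissural axons, was found in 1 F cell with 4 counts and in 9 P cells with 10059, at a log2 fold of -5.33. Robo4, an endothelial receptor, had 1 count in 1 P cell.

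Secreted netrins were nearly absent but for Ntn3. Ntn1, the classic floor-plate attractant, was found in 3 F and 3 P cells, Ntn4 in 3 and 1, and Ntn5 in 2 and 6. Ntn3 was found in 18 of 25 F cells (72%, interval 50.6 to 87.9%) and 15 of 59 P cells (25.4%, 15 to 38.4%), the reverse of most guidance genes. Of those 18 F cells 15 were among the 16 libraries numbered 13 to 28, and 3 among the other 9. In the 16 the median was 1.5 counts, 7 libraries had a single count, and F20 had 70 (742 CPM). When each F cell was set against each P cell (1475 pairs, ties shared), F was the higher in 71.9%, and in 50.8% without those 16. The mean went the other way, 36.5 against 82.6 CPM, since 6 P cells reached at least 100 CPM, up to 2688. The log2 fold was -1.16, and -6.17 without the 16 libraries, -3.37 without F20 and -0.043 without P69, so the direction of the mean rests on few cells. At equal depth Ntn3 was found in 5 of 22 F cells (22.7%), none of them among the other 9, and in 9 of 53 P cells (17%). The part of the reads these libraries share was not tested.

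Ntng1, the netrin-G that binds Lrrc4c on the facing membrane, was found in 6 of 25 F and 24 of 59 P cells, at 0 to 311 and 0 to 1370 CPM with medians of 0. Means were 13.2 and 57.6 CPM, a log2 fold of -2.04. F13 held 94% of the F sum, and the fold was -5.01 without it. Ntng2 was found in 1 F and 2 P cells with a single count each. Lrrc4c, the partner of Ntng1, was found in 13 F and 36 P cells at means of 53.5 and 193 CPM, and Lrrc4, the partner of Ntng2, in 5 and 7.

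Netrin receptors gave the other measured gene that was at least 2-fold higher in F cells. Dcc was found in 7 of 25 F and 9 of 59 P cells, at 0 to 388 and 0 to 285 CPM with medians of 0. The means of 26.8 and 5.34 CPM gave a log2 fold of 2.13. F12 (1050 counts, 388 CPM) and F11 (473 counts, 264 CPM), the 2 libraries that resemble each other, carried it: no other F cell exceeded 12.8 CPM. Averaged as 1 cell they gave 1.28, and without both the fold was -1.80. In P cells P67 alone held 90.4% of the sum, and without it the fold was 4.19. Neo1 was found in 7 of 25 F and 28 of 59 P cells, at 0 to 1204 and 0 to 3233 CPM with medians of 0. Its log2 fold of -1.57 (means 54.2 and 162 CPM) was -0.13 without F13 to F28, 3.10 with the older basecaller and -4.53 with the newer, F6 of the older holding 88.9% of the F sum.

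Unc5 genes had lower means in F cells. Unc5a, Unc5c and Unc5d were found in a larger share of the 9 F cells outside F13 to F28 than of P cells. So were 68.3% of all measured genes. Unc5a was found in 0 of those 16, in 5 of the other 9 F cells and in 20 of 59 P cells. Unc5c, known for repelling axons and guiding cerebellar neurons, was found in 1, 6 and 19. At least 1 Unc5 gene was found in 2 of 16, 9 of 9 and 36 of 59, and at equal depth in 1 of 13, 6 of 9 and 22 of 53. Unc5c was at 0 to 187 (F) and 0 to 4545 CPM (P) with medians of 0, and its log2 fold of -3.47 was -2.12 without F13 to F28 and -1.60 without P26. Unc5a averaged 3.28 and 17.9 CPM, a log2 fold of -2.14, and -0.90 without F13 to F28. Unc5d averaged 2.49 and 15.5 CPM, a log2 fold of -2.24 that was -1.04 without P5, and was found in 4 F and 13 P cells. Unc5b had no count in F cells and 649 in 4 P cells, of which P57 held 642, so no difference between the groups can be stated beyond that cell.

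**Figure D2:**
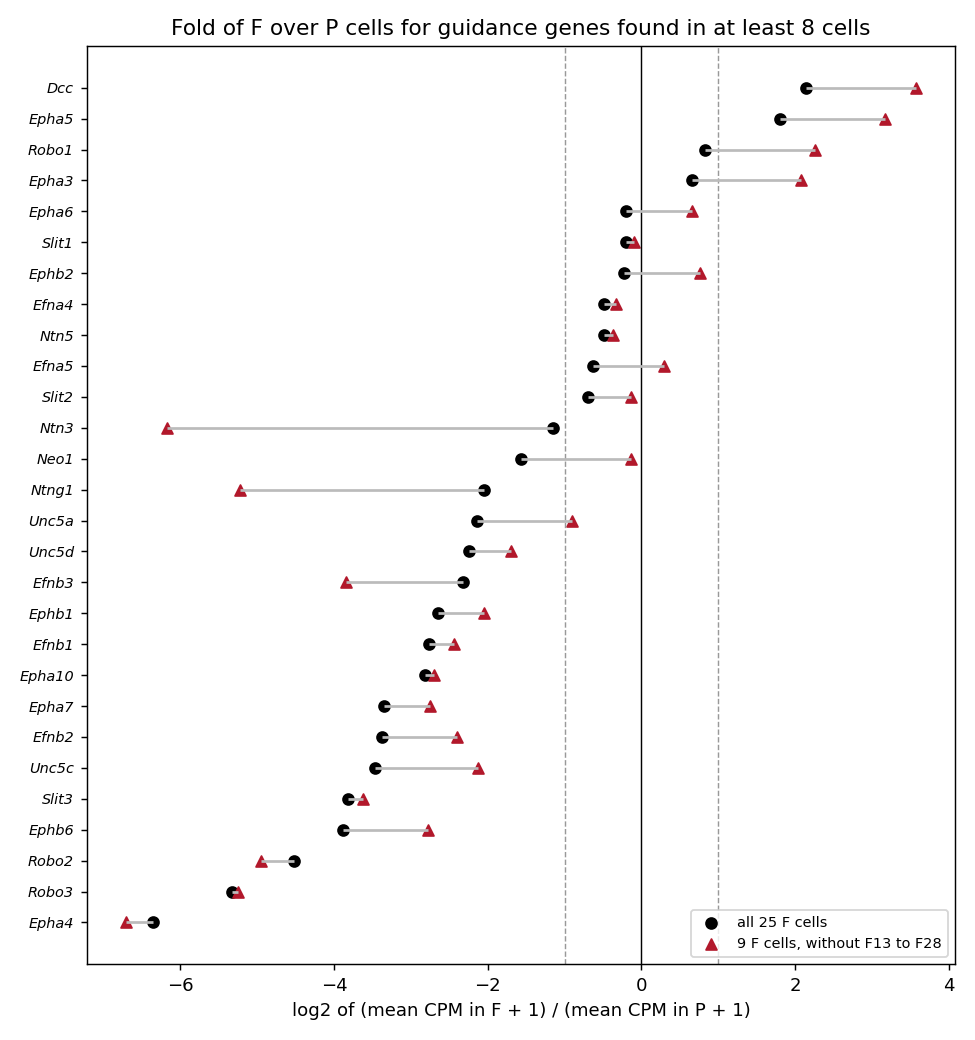
Log2 fold of mean CPM in F over P cells (with 1 CPM added to each mean) for the 28 measured guidance genes, with all 25 F cells as circles and the 9 F cells outside F13 to F28 as triangles; dashed lines mark 2-fold. Epha4, Robo3 and Robo2 lie lowest with all F cells, and Ntn3 and Ntng1 move farthest when the 16 libraries are left out.

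Counted together, 17 of the 28 measured guidance genes (60.7%) were at least 2-fold higher in P cells and 2 (7.14%) at least 2-fold higher in F cells. Of all 11324 measured genes the shares were 46.4% and 18.5%. The median log2 fold was -2.09 over the guidance genes and -0.79 over all measured genes. Without F13 to F28 the numbers were 15 and 4 of 28, beside 45.6% and 19.3% of all genes, and the median was -1.88 beside -0.75. The 4 were Epha3, Epha5, Robo1 and Dcc. For the older basecaller, 11 were at least 2-fold higher in P cells and 6 in F cells, beside 41% and 21.4% of all genes. For the newer one the numbers were 18 and 1, beside 50.2% and 18%. With thinned cells they were 17 and 2, beside 47% and 19%. By direction alone, 4 of 28 had a higher mean in F cells (14.3%, beside 34.7% of all genes), and 7 without F13 to F28 (25%, beside 33.4%). The share was 32.1% with the older basecaller (beside 32.8%), 10.7% with the newer (beside 32.7%) and 21.4% when thinned (beside 33.6%).

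**Figure D3:**
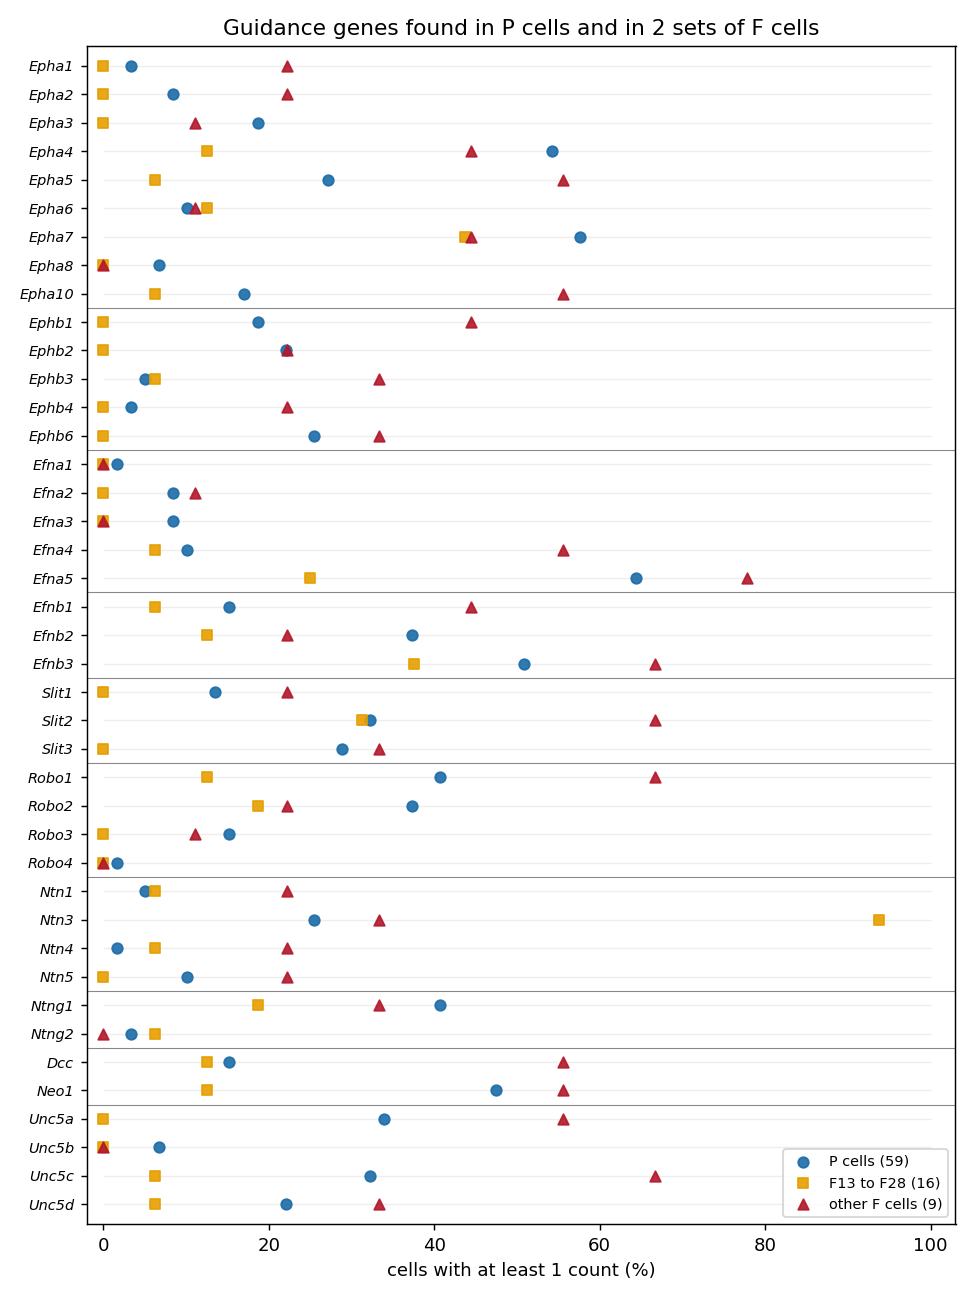
Percent of cells with at least 1 count for each of the 41 guidance genes, ordered by family, in the 59 P cells (circles), F13 to F28 (squares) and the other 9 F cells (triangles). Apart from Ntn3, found in 15 of 16, the squares lie at 43.8% or below.

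How often a guidance gene was found depended on which F cells were counted. Of the 28 measured genes, 7 were found in a larger share of F than of P cells (25%, beside 27.2% of all genes). With the 9 F cells outside F13 to F28 the number was 21 (75%, beside 68.3%). At equal depth it was 9 with all F cells (32.1%, beside 38.7%) and 12 with the 9 (42.9%, beside 48.7%). The guidance genes followed all genes in each of these shares to within 7 percentage points.

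A neuron held several guidance genes at once. The number per cell ran from 2 to 24 in F cells (median 5) and from 1 to 21 in P cells (median 8), and from 2 to 8 (median 3) in F13 to F28 against 4 to 24 (median 12) in the other 9. It followed the number of genes found, with a Spearman coefficient of 0.80 over 25 F and 0.86 over 59 P cells, as a description, since each point shares its library. Within F13 to F28 the coefficient was 0.38, and within the other 9 F cells 0.76. After thinning the median numbers per cell were 2.5 in F and 4 in P cells. Receptor and ligand were often found in the same cell: an Eph receptor with an ephrin in 15 of 25 F and 47 of 59 P cells, and a Slit with a Robo in 8 and 22. A secreted netrin with Dcc, Neo1 or an Unc5 gene went the other way, in 12 of 25 F (48%) and 19 of 59 P cells (32.2%). At equal depth the Eph and ephrin pairing was found in 5 of 22 F (22.7%) and 27 of 53 P cells (50.9%), the Slit and Robo pairing in 1 and 8, and the netrin pairing in 1 and 7.

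**Figure D4:**
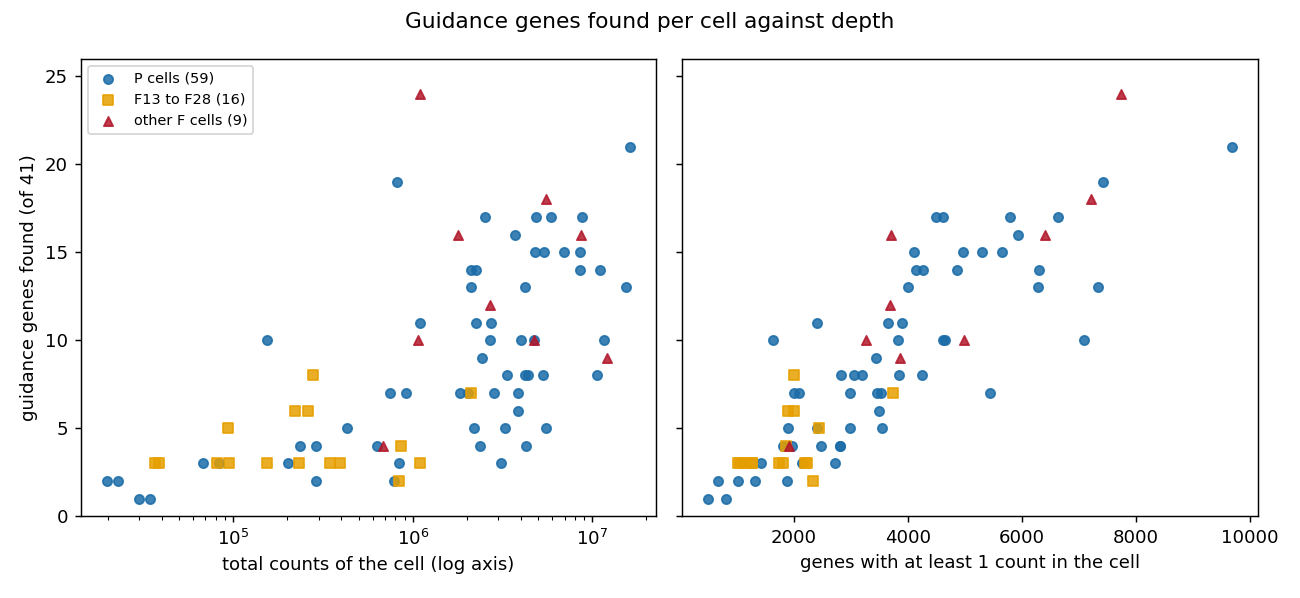
Number of the 41 guidance genes found in each cell against its total counts (left, log axis) and against the number of all genes found (right); circles are P cells, squares F13 to F28, triangles the other 9 F cells. F13 to F28 lie at 2 to 8 guidance genes, with 36594 to 2116359 counts and 1013 to 3731 genes found.

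Single cells made much of the means. For 22 of the 28 measured guidance genes 1 F cell held over 50% of the summed CPM of F cells (78.6%, beside 77.5% of all genes), and for 17 of them 1 P cell did so in P cells (60.7%, beside 54.4%). Epha4, Epha7, Robo1, Robo2, Slit3, Ntng1, Neo1 and Unc5a were among the 11 for which no P cell did. Efna1, Efna3 and Efna4 lie side by side on chromosome 3 of mm10 (89271733 to 89281142, 89313899 to 89322965 and 89333390 to 89338028). Exons of 12 of the 41 genes overlap those of another gene in GENCODE M21, from 0.62% of exonic bases for Unc5c to 23.4% for Ntn5, and for Ntn3 2.72% with an opposite-strand and 1.74% with a same-strand neighbour. Reads in such stretches cannot be assigned with certainty, since the counting is not given in the sources used here.

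Among proteins that act with these receptors inside and beside the neuron, of 45 measured partners (of 49 listed), 20 were at least 2-fold higher in P cells (44.4%) and 8 in F cells (17.8%), beside 46.4% and 18.5% of all genes, and their median log2 fold was -0.47. Ngef (ephexin), an exchange factor that acts downstream of Epha4, was found in 3 F and 25 P cells with a log2 fold of -1.17, and Chn1 (alpha-chimaerin), which links Epha4 to Rac, in 11 and 45 with -1.36. Srgap3, a Robo-binding GTPase activator, had a log2 fold of 0.67. Rhoa had a log2 fold of 2.72, Rac1 of 0.10, Cdc42 of -0.31 and Lrrc4b of -0.40. Without F13 to F28 the values were 0.27 for Ngef, -0.40 for Chn1 and 1.99 for Srgap3. They were 1.52 for Rhoa, 1.54 for Rac1, 0.87 for Cdc42 and -1.05 for Lrrc4b.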

How the data were processed

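Whole-number read counts per gene symbol and cell were deposited by the authors in a single table. Per the submitters' processing notes, reads were basecalled with bcl2fastq 1.8.4 (3 F and 6 P cells) or 2.17 (22 F and 53 P cells) and aligned with STAR 2.4.0 to mm10. The counting tool, annotation and strand setting were not given in the sources used here. Cells were grouped by title.

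Each count was scaled to a cell total of 1000000 (CPM), and CPM were averaged with equal weight per cell. The fold is (mean F + 1)/(mean P + 1), called at 2-fold. The fold formula was run on simulated counts in which 200 genes of higher mean were changed, with the median fold subtracted. The folds given here have no median subtracted. That run does not cover genes of low mean or means that rest on 1 cell. Genes were measured with a count in at least 8 cells. Members were described in full if measured and either 2-fold different or found in at least 30% of a group, and others by number of cells. Epha3, Ephb2, Ephb3, Efna2, Efna4, Slit1 and Unc5b got values as well, and Ntng2 and Robo4 got counts, chosen after these were seen. Members and lists were chosen with earlier results of these data known. Gene positions and union exon lengths are from GENCODE M21. Alternatives, given in the closing part, covered scaling (TMMwsp, edgeR 4.0.16), averaging, filters, thinning, basecaller versions and left-out libraries. Work was done in Python 3.11.15 and R 4.3.3.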

Additional observations from a re-analysis of the deposited data

How the results depend on the processing

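Precision is limited by depth, by 25 F cells and by 1 sample per group. No paired analysis was possible because the numbers in the titles only name cells and no test was made. There were 17 alternatives, 2 of them (without F11 and F12, and the newer basecaller without F13 to F28) chosen after seeing the data. Across them, 10 of the 19 genes with a 2-fold difference did not change sign: Epha4, Epha7, Efnb1, Efnb2, Slit3, Robo2, Ntng1, Unc5a, Unc5c and Unc5d. Efnb1, Slit3 and Unc5d had 16 alternatives, since the minimum of 21 cells leaves them out. When each cell was left out in turn, none of these 10 changed sign, but Efnb1 was -0.77 without P29 and Unc5d -1.04 without P5. Efnb1 was 0 with trimmed means, and all but Epha4 and Efnb2 were under 2-fold on the log2 scale.

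The number at least 2-fold higher in F cells, 2 of 28, was 0 on the log2 scale. It was 1 with trimmed means, with a minimum of 21 cells (14 genes), with the newer basecaller and without F11 and F12. It was 4 with pooled counts and without F13 to F28, 5 with the newer basecaller without F13 to F28, and 6 with the older. The number at least 2-fold higher in P cells, 17, was 2 on the log2 scale and 5 with trimmed means. With a minimum of 21 cells it was 10, and with the older basecaller 11. With each cell left out in turn these ran from 1 to 3 and from 16 to 21, and the share with a higher mean in F, 14.3%, from 7.14% to 21.4%. The log2 and trimmed settings leave few genes past 2-fold in the whole table (9.79% and 13.4% higher in P cells). The median of all genes, -0.79, was -0.15 on the log2 scale, 0 with trimmed means, -0.32 with the older basecaller and -1.01 with the newer.

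Reversed log2 folds were, with the older basecaller, -0.33 for Dcc, 3.50 for Efnb3, 2.58 for Epha10, 0.017 for Ephb1, 1.29 for Ephb6, 3.10 for Neo1 and 0.042 for Robo3. With pooled counts they were 0.024 for Efnb3 and 0.45 for Neo1. With trimmed means they were 0.044 for Epha10, -0.040 for Epha5 and 1.98 for Ntn3. Ntn3 was 0.96 on the log2 scale and 0.047 with totals without the 20 highest genes. Efnb3 was 0.21 thinned, 0.34 without libraries under 100000 counts and, over the cells left out in turn, from -5.14 (F27) to 0.14 (P35). Dcc was -1.80 without F11 and F12, and Epha5 ran from -0.59 (without F1) to 2.55 (without P5). The cause was not tested beyond the cells named.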

Other observations

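The cell F5 held 24 of the 41 guidance genes, the most of any cell, and had the highest F value of 11 of them: Epha3, Epha6, Ephb1, Ephb2, Ephb3, Ephb4, Efnb1, Efnb2, Slit1, Ntn5 and Unc5c. It had 7738 genes found at 1091616 counts, the most genes of any F cell. The share of P cells in which a guidance gene was found went with its exonic length, with a Spearman coefficient of 0.50 over the 41 genes, and 0.41 in F cells. Genes are not independent replicates, and longer genes can give more reads.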
